A study of Danio rerio with 40 samples.

Results

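The immediate early and stress genes described are all rows of the count table whose symbol begins with one of 14 family names, from FOS to SOCS, as matched in the supplied gene name table. There were 99 such rows among 33737 genes. They carry 88 distinct symbols, since 22 rows share a symbol with another copy and are given with their identifier where needed. The match is by name alone. It took in atf7ip, atf7ip2, IER3IP1, CEBPZ and dusp11, which are not known as family members of the kind the prefix stands for. The table gives a symbol to 21939 genes, and rows without one were not searched.

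Immediate early genes respond to a stimulus fast, since they are transcribed by factors already present in the cell and need no new protein. Many encode transcription factors. FOS and JUN proteins pair through leucine zippers into AP-1, EGR and KLF proteins bind DNA through zinc fingers, and NR4A proteins are nuclear receptors regulated largely by how much of them is made. Others act back on the signal, as several DUSP phosphatases do on MAP kinases and SOCS proteins on cytokine receptors. The epicardium, the outer layer of the heart, is known to respond to cardiac injury, and such genes are also known to respond to tissue dissociation. The roles given below for single genes are those known from mammals.

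Transcripts were measured in 40 single cells from the ventricles of adult zebrafish of the EK strain, 6 months old, that carry the reporter tcf21:nucEGFP. After digestion at 37 °C with Liberase DH, a blend of proteases, cells positive for EGFP that excluded propidium iodide, a dye that enters dead cells, were sorted and captured on the Fluidigm C1, a device that holds each cell in its own chamber. All cells formed 1 group. No animal, uninjured or injured state, batch or day is given for a cell, so the cells are described as 1 sample and no test was run. Every cell went through the same digestion, so a level already present in the heart and a response to the digestion cannot be told apart.

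The cells had between 340293 and 5695770 expected reads each. Levels are given as CPM, the reads of a gene per 1000000 reads of the cell. CPM is not divided by transcript length, so values of different genes are shares of reads and not numbers of transcripts. Detection of a gene in a cell required at least 5 expected reads. The 25 cells with at least 2000 detected genes are called kept, and the other 15 are given beside them. TCF21, whose reporter marked the cells, passed the detection level in 24 of 25 kept cells and 37 of all 40. The 7 listed epicardial markers comprised 2 detected in 90% or more of kept cells and 5 in 10 to 90%, against 1.77% and 24.6% of genes with a symbol. Together they held 0.010 to 1.53% of reads in kept cells, with a median of 0.321%. The 9 listed fibroblast markers comprised 5 in 90% or more, 3 in 10 to 90% and 1 in none. They held more reads, with a median of 1.39% and a range of 0.00136 to 3.20%. Cells 7 and 33, which were not kept, stood apart, with 15.9 and 15.6% of reads in 8 listed cardiomyocyte marker genes and 2 and 3 reads of TCF21. Cell 11, which was kept, had 3.22% of reads in 13 listed macrophage marker genes and 2 reads of TCF21. Cell 18, also kept, had 0.884% in the cardiomyocyte genes, against a median of 0.000582% in kept cells. Cell 40 had 10792 detected genes, against a median of 2378 in kept cells. It also had 0.288% of reads in the cardiomyocyte genes and 0.0773% in the macrophage genes, the latter against a median of 0 in kept cells.

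Transcripts of a small set of these genes were found in every kept cell, and most other members were found in some cells or in none. Of the 99 members, 15 (15.2%) were detected in every kept cell, against 0.646% of all genes and 0.802% of genes with a symbol. At least 90% of kept cells had 16 members (16.2%), against 1.43% of all genes and 1.77% of those with a symbol. Another 43 members (43.4%) were detected in 10 to 90% of kept cells, against 20.4% and 24.6%, and 12 in fewer. No kept cell had the remaining 28 (28.3%), against 56.4% of all genes and 48.8% of those with a symbol. With 3 cells of 25 as the limit for a count of 0, detection in no kept cell allows a share of up to 12%, and the Wilson interval reaches 13.3%, both for counting error alone. Of those 28, 24 had no read in any of the 40 cells and 4 had a read in a kept cell. The shares of all genes without a read, or detected in fewer than 10% of kept cells, were not counted. A kept cell had a median of 31 members detected, from 22 in cell 37 to 62 in cell 40.

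The 15 members in every kept cell were FOS, FOSB, FOSL1, FOSL2, JUN, JUNB, JUND, JDP2 (ENSDARG00000020133), atf4b, CEBPB, egr1, CSRNP1, BTG1, BTG2 and SOCS3 (ENSDARG00000025428). The 16th, IER5, was detected in 23 of 25. The Wilson 95% interval, which covers counting error only, is 86.7 to 100% for 25 of 25 cells, 75.0 to 97.8% for 23 and 40.7 to 76.6% for 15. Thus 9 of the 14 families had at least 1 member in every kept cell, and the MAFF, KLF, NR4A, IER and DUSP families did not. All 40 cells had 9 members (9.09%), against 0.155% of genes with a symbol, and these 9 were among 41 such genes of the whole table. The 9 were FOS, FOSB, JUN, JUNB, that JDP2 copy, egr1, CSRNP1, BTG2 and that SOCS3 copy. Among the genes with the highest mean CPM in kept cells, members were 5 of the first 20, 15 of the first 100 and 17 of the first 200.

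**Figure D1:**
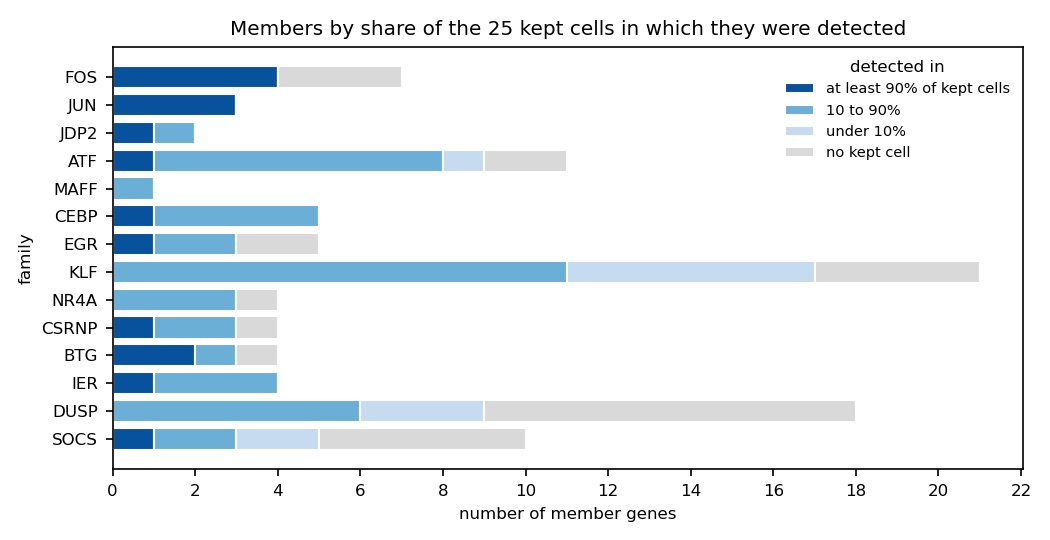
Number of member genes in each of the 14 families (horizontal axis), coloured by the share of the 25 kept cells in which the gene was detected. JUN is the family with all of its 3 genes in at least 90% of kept cells, while 9 of the 18 DUSP genes and 5 of the 10 SOCS genes were detected in no kept cell, near the 48.8% of genes with a symbol.

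Detection alone says little about level, because several of these genes were present at a few reads in some kept cells. At 50 CPM or more, 5 members were found in every kept cell, FOS, FOSB, JDP2 (ENSDARG00000020133), CSRNP1 and BTG2, against 0.0711% of all genes. FOS was at 50 CPM or more in all 40. Low reads were also found in cells that stood apart. In cell 7 the 15 members were at a median of 0.415% of their mean over kept cells (0.136 to 1.19%), and 12 of them passed the detection level. In cell 33 the median was 0.373% (0.192 to 13.7%) and all 15 passed. In cell 1, with 161 detected genes, it was 0.253% (0.0656 to 0.693%) and 10 passed. Whether such low values are the cell's own RNA or reads carried over from other cells was not tested.

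All members together held a median of 7.20% of a kept cell's reads, with an SD of 3.74 over 25 cells. The share was lowest in cell 11, at 1.70%, and highest in cell 8, at 20.1%. Cells not kept lay between 0.0268% in cell 1 and 17.3%, with a median of 8.21%. The low end of that range was held by cells with many mitochondrial reads and by the cells with cardiomyocyte transcripts. In the 5 cells with over 20% mitochondrial reads the share was 0.0268 to 5.02%, with a median of 0.482%, against 0.0787 to 17.3% and a median of 9.07% in the other 10. Cells 7 and 33 had 0.0787% and 0.151%.

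The FOS and JUN families together made up a median of 52.4% of member reads in kept cells, from 29.5% in cell 11 to 73.6% in cell 35, and more than 50% in 15 of 25. FOS was the family with the most reads in 23 of 25 kept cells. The exceptions were cell 3, where JUN was largest, and cell 11, where NR4A was.

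**Figure D2:**
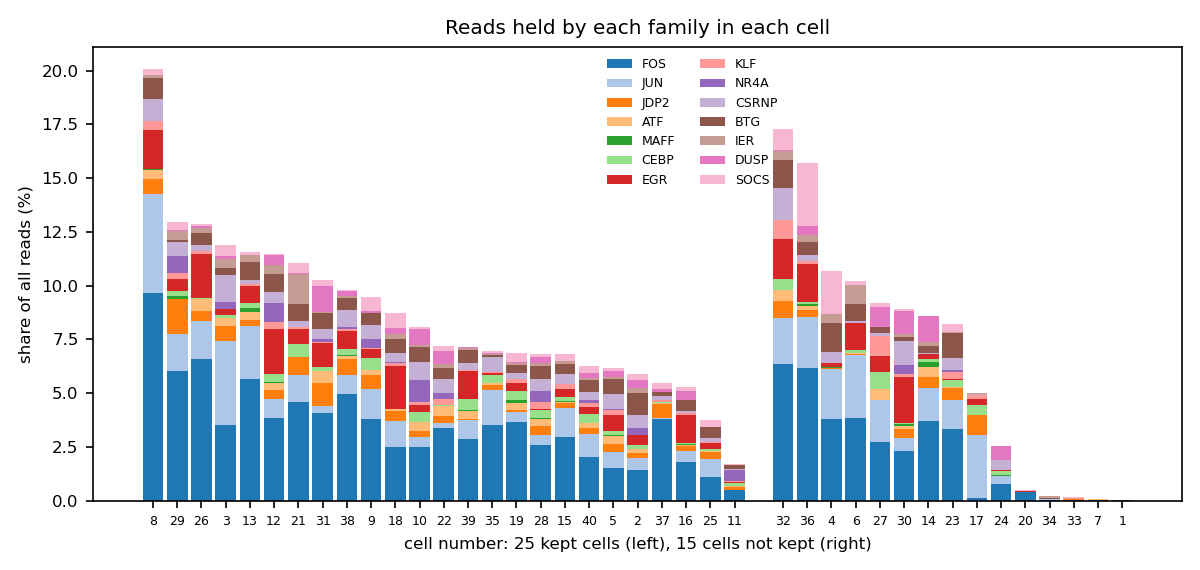
Share of all reads of a cell (%) held by each of the 14 families, stacked, in the 25 kept cells at the left and the 15 cells not kept at the right, each ordered by the total. Kept cells lie between 20.1% (cell 8) and 1.70% (cell 11), with FOS as the largest block in 23 of them.

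FOS encodes the AP-1 subunit whose transcript is a common readout of recent stimulation. It lay at 4003 CPM in cell 11, a median of 27431 CPM and 87484 CPM in cell 8 over kept cells. It had the most reads of any member, and its mean CPM was 82.3% of the summed mean CPM of its family. In cells not kept its level reached down to 84.96 CPM in cell 1, and cells 7 and 33 had 109.5 and 191.1 CPM. FOSB, a close relative, ranged over kept cells from 668.0 CPM in cell 37 through a median of 2898 CPM to 16037 CPM in cell 29. Neither gene was under 500 CPM in any kept cell.

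The Fos-related antigens, which in mammals tend to accumulate later than FOS, held fewer reads than FOS. FOSL1 had 1.51 CPM in cell 11, a median of 701.3 CPM and 2160 CPM in cell 29. FOSL2 had 31.95 CPM in cell 18, a median of 1452 CPM and 10097 CPM in cell 12. FOSL1 was under 50 CPM in cells 11 and 35, and FOSL2 in cell 18. The other 3 rows of the family, fosaa, fosl1b and fosl2l, had no read in any of the 40 cells. The estimate that made the counts divides reads between near-identical copies. How alike these rows and FOS are in sequence was not examined, so whether the values of 0 rest on that division was not tested.

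JUN proteins form AP-1 with one another or with FOS proteins. JUN had 12.06 CPM in cell 11, a median of 2475 CPM and 25086 CPM in cell 8. JUNB had 7.24 CPM in cell 11, a median of 4510 CPM and 20002 CPM in cell 3. JUND, the member least dependent on stimulation in mammals, had 1.56 CPM in cell 37, a median of 260.3 CPM and 2022 CPM in cell 8. Cell 11 was under 50 CPM for all 3, cell 37 for JUN and JUND, cell 28 for JUN and cell 35 for JUND. JUNB had the most reads of the 3 in 16 kept cells, JUN in 8 and JUND in cell 11. JUN had the largest coefficient of variation of the 15 members in every kept cell, at 1.21, and BTG2 the smallest, at 0.499.

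JDP2 encodes a small zipper protein that pairs with JUN and represses AP-1 targets. One copy, ENSDARG00000020133, had 347.4 CPM in cell 39, a median of 3349 CPM and 16531 CPM in cell 29. The other, ENSDARG00000040137, was detected in 4 kept cells and reached 66.78 CPM. Of the 11 symbols with a pair of copies, SOCS3 (25 and 14 kept cells) and NR4A2 (0 and 7) also differed widely. Others were close, such as ATF7 (4 and 3), KLF12 (5 and 4) and KLF7 (3 and 3).

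In the ATF family 69.1% of the summed mean CPM came from atf4b, a copy of the gene of the factor ATF4, which is known from the integrated stress response and is regulated mainly by translation. It had 5.13 CPM in cell 29, a median of 1443 CPM and 4186 CPM in cell 31. Cells 16, 25 and 29 were under 50 CPM. ATF3, a stress-induced partner of JUN, was uneven. It was detected in 15 of 25 kept cells, with a median of 20.9 CPM and 1761 CPM in cell 3, and was at 500 CPM or more in 7 cells. atf5b was detected in 10 kept cells with a median of 0.733 CPM and up to 2327 CPM in cell 26. The ATF2 row had no read in any cell. maff, which encodes a small MAF protein without an activation domain of its own, was detected in 18 of 25, with a median of 158.7 CPM and 1642 CPM in cell 19.

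CEBPB, a zipper factor of inflammatory and wound responses, had 2.72 CPM in cell 8, a median of 1177 CPM and 4964 CPM in cell 9. It was under 50 CPM in 5 kept cells, and cell 8, which had the largest member share, was the lowest of all. CEBPA, CEBPD and cebpg were detected in 10, 14 and 11 kept cells. Their medians were 1.02, 6.70 and 0.966 CPM and their highest values 3134, 1117 and 1771 CPM.

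**Figure D3:**
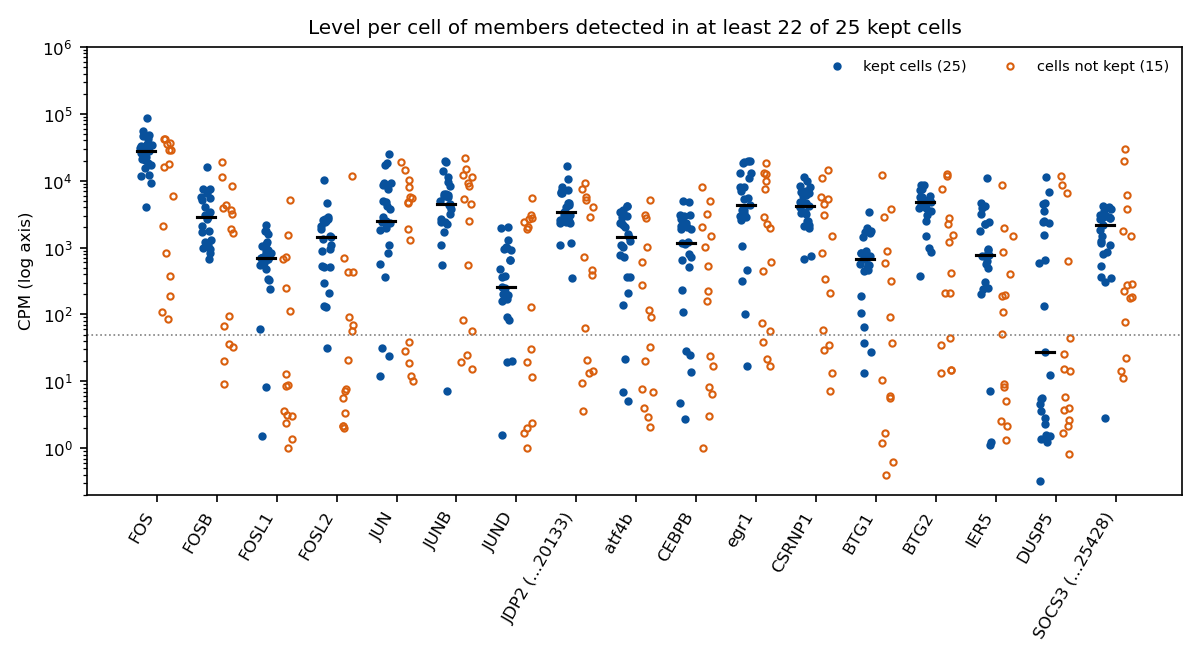
CPM on a log axis of the 17 member genes detected in at least 22 of 25 kept cells, with a point per cell, kept cells filled and cells not kept open. Bars mark the median over kept cells and the dotted line marks 50 CPM. FOS is highest with a median of 27431 CPM, and DUSP5 splits into a high and a low group with a median of 27.4 CPM.

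Among zinc finger factors, egr1 was present broadly and its relatives were not. egr1 had 16.9 CPM in cell 37, a median of 4383 CPM and 19710 CPM in cell 18, and cell 37 was the 1 kept cell under 50 CPM. egr2a and EGR3 were each detected in 11 kept cells, with medians of 0.914 and 0.938 CPM and highest values of 1669 CPM in cell 26 and 1217 CPM in cell 2. The rows EGR2 and egr4 had no read. Of the 21 KLF rows, 11 were detected in 10 to 90% of kept cells, 6 in fewer and 4 in no kept cell. Among genes with a symbol 24.6% were in 10 to 90% and 48.8% in none, so a larger share of KLF rows was detected. None of the KLF rows was in 90% or more, against 1.77% of genes with a symbol. KLF6, KLF4 and klf2a, copies of genes known from injury, barrier and flow responses, led the family. KLF6 was detected in 18 cells with a median of 248.6 CPM and up to 1397 CPM in cell 26. KLF4 was detected in 17 with a median of 33.5 CPM and up to 3785 CPM in cell 8, and klf2a in 15 with a median of 21 CPM and up to 2515 CPM in cell 12. KLF4 and klf2a were thus high in some cells and near 0 in others.

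The NR4A family was high in some kept cells and near 0 in others. It held 0.0698% of reads at the median over kept cells, from 0.000121% in cell 19 to 1.01% in cell 10. NR4A1 had 0.645 CPM in cell 18, a median of 237.2 CPM and 7758 CPM in cell 12, and was at 500 CPM or more in 11 cells and under 5 CPM in 8. NR4A3 was detected in 15 kept cells, with a median of 20.4 CPM and 4635 CPM in cell 28. Of the 2 NR4A2 copies, one had no read in any cell, and 96.4% of the other's summed CPM over kept cells came from cell 10, at 4623 CPM. At 50 CPM or more, NR4A1 was found in 13 kept cells and NR4A3 in 12. They were found together in 10, which is 76.9% of the NR4A1 cells and 83.3% of the NR4A3 cells. NR4A1 and DUSP5, also in 12, were together in 10 as well. These pairs were picked from many, and the overlap of unrelated genes was not computed. Overlap was not particular to NR4A genes. All 7 kept cells with cebpg at that level had KLF6, which was at that level in 16 kept cells. All 5 with EGR3 had NR4A1, and also ATF3, DUSP5 and maff, while DUSP5 and DUSP8 were together in 5. The full overlaps were likewise picked for their values. Cell 11, low in FOS and JUN genes, had 4991 CPM of NR4A1.

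CSRNP1, a cysteine- and serine-rich nuclear protein also known as a gene upregulated by AXIN1, had 682.6 CPM in cell 16, a median of 4130 CPM and 11553 CPM in cell 3. It was over 500 CPM in every kept cell, as FOS and FOSB were. CSRNP2 was detected in 14 kept cells, but 93.8% of its summed CPM came from cell 12. BTG1 and BTG2 encode antiproliferative proteins that recruit the deadenylase complex to messenger RNA. BTG2 had 379.6 CPM in cell 29, a median of 4746 CPM and 8742 CPM in cell 12, and BTG1 had 13.1 CPM in cell 37, a median of 663.4 CPM and 3414 CPM in cell 13. BTG1 was under 50 CPM in cells 12, 35 and 37, whereas BTG2 was over 50 CPM in all 25 kept cells.

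IER5, an immediate early gene known as a modulator of the heat shock factor HSF1, had 1.12 CPM in cell 25, a median of 765.0 CPM and 10949 CPM in cell 21. It was at 500 CPM or more in 17 kept cells and under 50 CPM in cells 16, 25 and 37. ier2b was detected in 11 kept cells, and IER5L in 11 with 91.1% of its summed CPM from cell 21.

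The feedback genes were uneven across cells. DUSP5, a nuclear phosphatase of the kinase ERK, was detected in 22 kept cells, with 0.323 CPM in cell 18, a median of 27.4 CPM and 11549 CPM in cell 31. It was at 500 CPM or more in 11 cells, between 50 and 500 CPM in 1 and under 50 CPM in 13, so the cells fell on either side of a wide gap. DUSP8, a phosphatase of the stress kinases JNK and p38, was detected in 20, with a median of 110.6 CPM and 4240 CPM in cell 16. DUSP6, the cytoplasmic ERK phosphatase, was detected in 10 and reached 663.3 CPM in cell 22, and DUSP4 in 6 and reached 431.8 CPM in cell 5. Of the 18 DUSP rows, taken by name whether or not they act in feedback, 9 were detected in no kept cell, a share near the 48.8% of genes with a symbol. They were DUSP10, DUSP12, DUSP13B, dusp22a, DUSP28, dusp3a, dusp3b and a copy each of DUSP19 and DUSP23.

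SOCS3 inhibits signalling of interleukin 6 type cytokines. The copy ENSDARG00000025428 had 2.80 CPM in cell 39, a median of 2174 CPM and 4220 CPM in cell 19, and was over 50 CPM in 24 of 25. It reached 29527 CPM in cell 36, which was not kept. The copy ENSDARG00000026611 was detected in 14 kept cells, with a median of 8.78 CPM and 2287 CPM in cell 9. The other 8 SOCS rows were detected in 3 or fewer kept cells each.

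Of the 43 members detected in 10 to 90% of kept cells, 27 (62.8%) were at 500 CPM or more in their highest kept cell, against 39.2% of the 6866 genes of all kinds so detected. The median over kept cells was under 5 CPM for 32 (74.4%), against 92.1%. In 16 (37.2%) a single cell held over 50% of the summed CPM, against 54.9%. Low medians and single high cells were thus no more frequent among these members than among all such genes. Absence of a transcript from a single cell and failure to capture it were not told apart here.

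**Figure D4:**
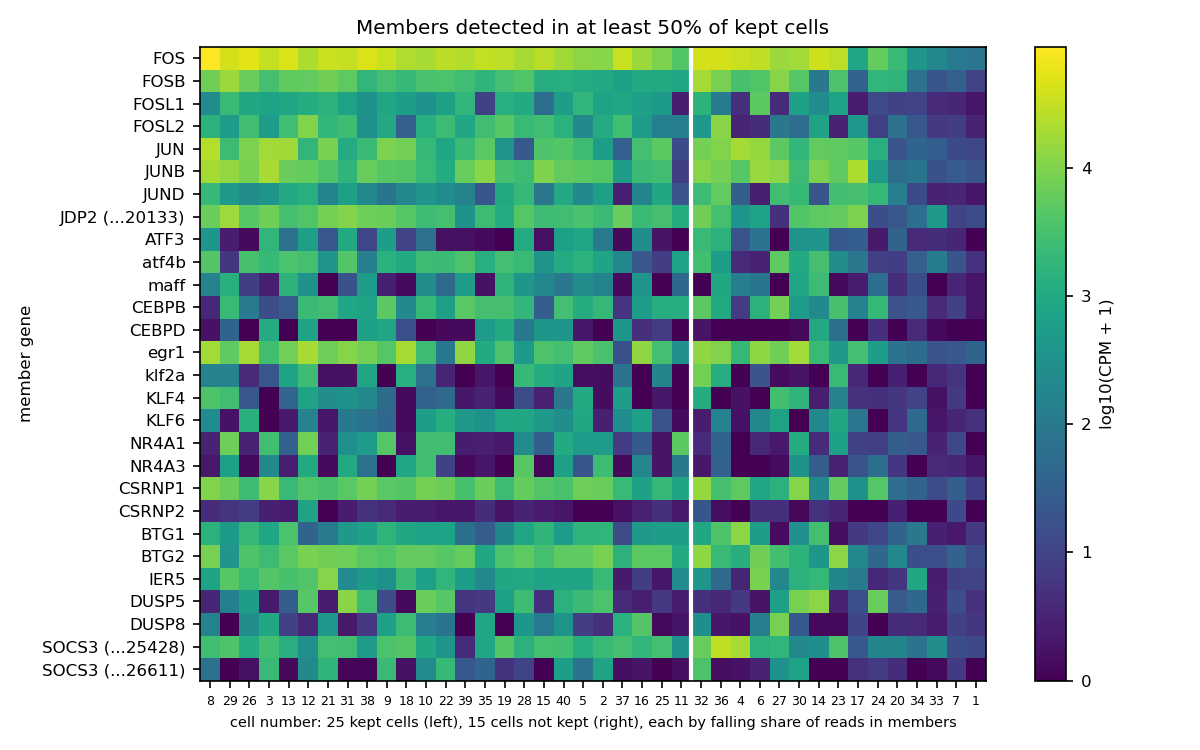
log10(CPM + 1) of the 28 members that at least 50% of kept cells had (rows, by family) in the 25 kept cells at the left of the white line and the 15 cells not kept at the right, each ordered by falling share of reads in members. FOS is bright in every kept cell, with 4003 CPM or more, while NR4A1, NR4A3, DUSP5 and ATF3 alternate between high and low cells.

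Co-variation was weak over the members as a whole. The very highest pairs, picked out of 378, joined genes of AP-1 and JDP2, and pairs with KLF4 and IER5 followed closely. It was described by Spearman correlations over the 25 kept cells among the 28 members detected in at least 50% of them, a level that 4.63% of all genes reached. The points of each correlation are single libraries, so depth and the scaling to the cell's total are shared by both genes. The 378 pairs had a median correlation of 0.11, from -0.47 to 0.66, and 29.9% were not positive, against a median of 0.05 and 42.2% over the pairs of all 1561 genes so detected. The correlation was over 0.5 in 10 member pairs (2.65%), against 3.05% of all pairs. The median over 19 pairs within a family was 0.17, against 0.10 over 359 pairs between families. Both summaries rest in part on cell 11: without it the median over all pairs was 0.07 and within families 0.09.

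The 3 highest pairs joined genes of AP-1 and its partner JDP2. These were picked as the highest of 378, so their values are larger than those of pairs taken without selection. JUN and JUNB had a correlation of 0.66, FOS and FOSB 0.63 and FOS and JDP2 (ENSDARG00000020133) 0.62, and FOSB and that JDP2 copy had 0.54. The 12 pairs of a FOS with a JUN gene had a median of 0.20, and 0 of them were over 0.5. Leaving out each kept cell in turn, the correlation of JUN and JUNB lay between 0.62 and 0.71 and that of FOS and FOSB between 0.59 and 0.75. All 6 pairs within the FOS family were positive, with a median of 0.36, and the 3 within the JUN family had a median of 0.15. JDP2 and KLF4 had a correlation of 0.62, FOSB and IER5 0.60, FOSL1 and IER5 0.51 and FOSB and atf4b 0.50. By Pearson correlation of log2(CPM + 1), FOSL1 and IER5 had 0.20 and FOSB and atf4b 0.21, and FOSB and IER5 had 0.32 at the lowest of the settings tried, with cells of fewer detected genes added. ATF3 had 0.55 with NR4A3 and 0.54 with BTG2, and was positive with 22 of the 27 other members.

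The phosphatase genes DUSP5 and DUSP8 ran opposite to each other, at -0.43. The lowest pairs were maff with DUSP8, at -0.47, and JUN with DUSP5, at -0.46, followed by CEBPB with BTG1 at -0.41 and FOS with NR4A3 at -0.39. Several of these shrank under other settings. By Pearson correlation of log2(CPM + 1), JUN and DUSP5 had -0.21. Over all 40 cells CEBPB and BTG1 had -0.11 and FOS and NR4A3 -0.16, and across all settings tried DUSP5 and DUSP8 reached -0.26 at the weakest. These pairs are the extremes of 378, so their values are larger than those of a pair taken without selection.

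**Figure D5:**
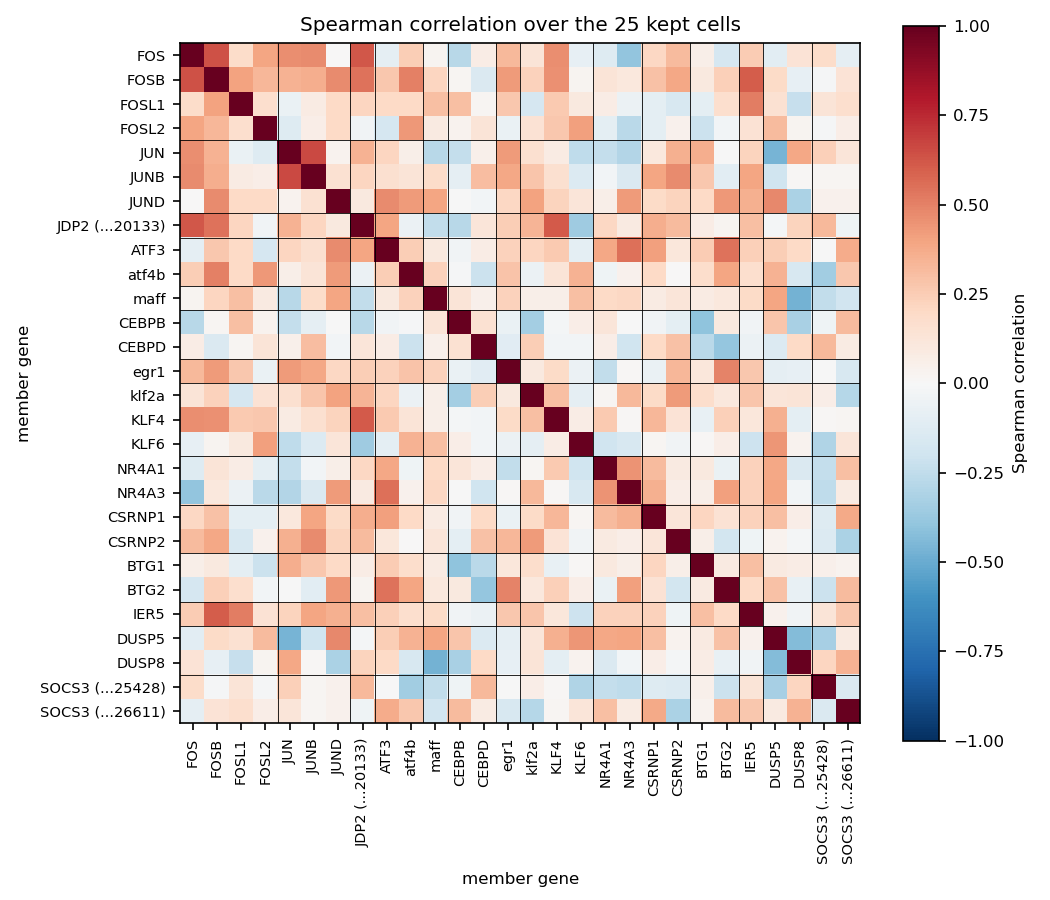
Spearman correlation over the 25 kept cells between the 28 members that at least 50% of kept cells had, in family order with lines between families, red for positive and blue for negative. The deepest red pairs are JUN with JUNB (0.66) and FOS with FOSB (0.63), and the deepest blue is maff with DUSP8 (-0.47).

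Summed by family, FOS varied with JDP2 at a correlation of 0.64 and with JUN at 0.51, EGR with BTG at 0.58 and NR4A with DUSP at 0.44. These were picked from all pairs of families. Negative values were also found, with JUN and DUSP at -0.41 and MAFF and SOCS at -0.36. The gene FOS made up 82.3% of the summed mean CPM of its family, and a single copy 99.87% of that of JDP2. The value of 0.64 thus largely repeats that of the gene pair, at 0.62. Over kept cells the share of all members had a correlation of -0.51 with total reads, -0.32 with the number of detected genes and -0.24 with the mitochondrial share. Over all 40 cells these were 0.09, 0.16 and -0.41, so the relation to depth and gene number changed sign with the cells used. With genes detected per cell taken out of the ranks, the median correlation over member pairs was 0.12. Against TCF21, FOSL2 had a correlation of 0.62 and FOS 0.52, whereas NR4A3 had -0.57. The first 2 rest on the choice of cells, since over all 40 cells FOSL2 had 0.26 and FOS 0.33, while NR4A3 had -0.46. They were read from 140 correlations of members with cell measures.

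Genes of the same pathways that are not family members were described by 5 lists. Of 33 other rapidly induced genes, 7 were detected in 90% or more of kept cells, 5 of them in every kept cell, 22 in 10 to 90%, 2 in fewer and 2 in none, and together they held a median of 2.47% of reads. Of genes with a symbol, 1.77% were in 90% or more, 0.802% in every kept cell, 24.6% in 10 to 90% and 48.8% in none. The 5 listed genes in every kept cell were a MYC copy, mcl1a, a ZFP36L1 copy, a GADD45B copy and ppp1r15a. MYC (ENSDARG00000007241), a growth factor-responsive transcription factor, had 4.52 CPM at the lowest, a median of 1940 CPM and a highest value of 7636 CPM. The share of the list varied with that of the members at a correlation of 0.50, but the median over the 560 pairs of a member with a listed gene was 0.03, against 0.05 over all genes.

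Transcripts of the upstream kinases and factors that act on immediate early promoters were mostly found in few cells, at a median of 3 kept cells per gene. Few as these cells were, the list was detected more widely than genes with a symbol. Of those, 48.8% were in no kept cell and 24.6% in 10 to 90%, against 3 and 13 of the 29 listed. Of 29 genes, crema, a copy of the gene of a cyclic AMP response factor, was detected in every kept cell, and ELK1, a partner of serum response factor, in 23. The level of ELK1 was low, with a median of 7.31 CPM and 1 kept cell at 50 CPM or more. Of the other listed genes 13 were in 10 to 90%, 11 in fewer and 3 in none. Of 26 partner zipper genes, XBP1 was in every kept cell, at 52.7 CPM, a median of 2025 CPM and 8591 CPM. DDIT3, a dimer partner of C/EBP proteins in the stress response, was in 24, and bach1a in 23 at a median of 6.29 CPM. Of the other partner genes 9 were in 10 to 90%, 7 in fewer and 7 in none, and the median over all 26 was 2 kept cells per gene. Of 11 feedback and co-repressor genes, 8 were in 10 to 90%, 2 in fewer and 1 in none. SPRY4, a feedback inhibitor of receptor tyrosine kinase signalling, was detected in 22, and the EGR co-repressor gene NAB2 in 6.

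Of the 25 listed heat shock genes, 8 were detected in 90% or more of kept cells, 5 of them in every kept cell. Another 13 were in 10 to 90%, 2 in fewer and 2 in none. Broad detection was thus shared by this list and the other rapidly induced genes, and was not particular to the members. Reads of the heat shock genes made up 5.01% at the median over kept cells, from 1.97% in cell 22 to 19.1% in cell 11. Their share varied with that of the members at a correlation of 0.39 over kept cells, and the median correlation of a member with a heat shock gene was 0.04. Cell 11 had the highest heat shock share of the kept cells and the lowest member share.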

How the data were processed

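The authors deposited 1 table of expected counts per gene and cell, which are estimates and can be fractional. Bowtie2, RSEM 1.2.12 and the build Zv9 are named in the submitters' processing notes, with no role or setting. Such counts divide reads between near-identical copies by estimate, and no molecular identifiers are named, so reads are not independent molecules.

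From these counts CPM was computed over all genes with Python 3.11.15, pandas 2.3.3 and scipy 1.17.1. Detection was set at 5 expected reads, a kept cell at 2000 detected genes, and co-variation was limited to members that at least 50% of kept cells had. No doublet caller was run. With 1 group and no animal named there is no test. Members and lists were chosen with earlier results of these data known, and pairs, cells and genes singled out for their values were chosen after those were seen. The lists were matched by symbol and, where that failed, without the zebrafish copy letter for all symbols but 1. Every member may be named, with full values for those in every kept cell and for the largest of each family. Sequences, promoters and proteins are not analysed here.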

Additional observations from a re-analysis of the deposited data

How the results depend on the processing

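At 50 CPM or more 5 members in place of 15 were in every kept cell, and 9 were in every cell when all 40 were used, while 10 in place of 16 were in at least 90% of kept cells at 50 CPM. The share of reads stayed between 7.17 and 7.64% leaving out single cells, an alternative chosen after seeing the data. The median correlation over members lay between 0.0704 and 0.135 leaving out single cells, and within families between 0.0879 and 0.238. It was 0.254 and 0.320 over all 40 cells (0.180 for all genes), 0.157 and 0.244 with median-of-ratios scaling (0.0146), 0.139 and 0.290 by Pearson correlation of log2(CPM + 1) (0.0455), and 0.179 and 0.255 for members in at least 90% of kept cells (0.0723). Without cells 11 and 18 it was 0.0811 within families, and without a filter on low values 0.0663 over all members. The causes were not tested, and none of these medians or of the highest and lowest pairs changed sign. The relation of the member share to depth and gene number did change sign, as given above. Among the main counts, shares and medians, 57 alternatives stayed within the limits set for a change and 13 did not, and among values of single genes and families 411 and 72. The limit was a fixed ratio for counts and the range from leaving out single cells for correlations. For shares and mean levels it was the SD over kept cells. That limit is wide, since JUN had an SD of 6403 CPM and a mean of 5291 CPM, so staying within it says little about stability. The comparison of promoter windows was not run. With 1 sample and no depth in molecules, intervals cover counting only. No paired analysis was possible because there is 1 group of cells and no replicate numbers are shared between groups.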
